A study of Mus musculus with 14 samples.

Results

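The 6 genes described here encode subunits of the NMDA receptor, the calcium-permeable glutamate receptor of excitatory synapses. They are Grin1, Grin2a, Grin2b, Grin2c, Grin2d and Grin3a. They were picked by name from a table of 24421 genes, and all 6 were among the 14897 genes that passed the filter on low counts and were tested. The samples were hippocampi of 7 mice labelled LPAR2-/- and 7 wild-type (WT) mice, 1 RNA sequencing library per mouse. All mice were naive males of the strain 129.C57Bl6, and the labels give their age as 10 to 12 weeks, whereas the title and design text of the series call them aged or middle aged, so that their age remains unclear. The targeted gene is Lpar2, a receptor for lysophosphatidic acid, of which the knockout removes part of exon 2. Knockout and WT mice were not littermates but came from separate colonies, the controls being of mixed C57BL/6 and 129/SvJ descent, so that genotype and colony cannot be told apart. The question was whether transcripts of the receptor differed between the genotypes.

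An NMDA receptor is a tetramer. GluN1, the product of Grin1, is obligatory and binds the coagonists glycine or D-serine, whereas the GluN2 subunits bind glutamate and set the kinetics and the magnesium block of the channel. GluN2A and GluN2B are the main partners of GluN1 in the adult forebrain and are needed for long-term potentiation in the hippocampus. GluN2C is best known from cerebellar granule cells and astrocytes, GluN2D from interneurons and the diencephalon, and GluN3A, which binds glycine, lowers calcium permeability and is prominent in young neurons.

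The members are related in sequence. The longest run of codons with the same translation in all 6 genes was 7 codons long, or 21 bases, and it is shown because it is the stretch in which the subunits are most alike. It lay within 1 counted exon of each gene, on the minus strand of mm10 in every case. In the following lines from GENCODE M21 transcripts, read 5′ to 3′ on the coding strand, capitals mark the bases that differ from Grin1.
Grin1, chr2:25297202-25297222: tacactgccaacctggcagcc
Grin2a, chr16:9653450-9653470: tacacAgccaacctggcTgcc
Grin2b, chr6:135772247-135772267: tacactgccaacTtAgcCgcc
Grin2c, chr11:115253752-115253772: tacacGgccaaTctggcagcc
Grin2d, chr7:45854282-45854302: taTacAgccaaTctggcTgcc
Grin3a, chr4:49770473-49770493: tacacAgcGaacTtggcTgcT
Between 2 and 5 of the 21 bases differed from Grin1. The longest identical run between the transcripts of any pair of members was 34 bases, in Grin2b and Grin2c.

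The libraries held 15434620 to 23258949 reads assigned to genes. Levels are given as CPM, which are counts scaled to a library size set by TMM, or, where genes are compared with each other, as RPKM, which is CPM per kilobase of counted exon. The targeted gene had more counts in the libraries labelled LPAR2-/- (144 to 234 counts of Lpar2) than in WT libraries (27 to 66 counts). Counts over all exons do not show the loss of a part of one exon, so that this is no check of the genotype, and LPAR2-/- denotes the libraries so labelled. The tissue is hippocampus in the labels and dentate gyrus in the results of the study. All 6 dentate granule cell markers were detected in every mouse and summed to 455 to 723 CPM. The 5 CA3 markers summed to 1315 to 1830 CPM, most of it from Nptx1, and the 5 CA1 markers to 89.6 to 343 CPM. Fibcd1, a marker of CA1 pyramidal cells, had 416 to 1067 counts in 13 mice and 3383 counts in WT mouse 2. LPAR2-/- mouse 2 had 4726 counts of the choroid plexus gene Ttr, against 20 to 427 in the other mice, and LPAR2-/- mouse 3 had 1810 CPM of Mbp, a myelin gene, against a median of 675 CPM in LPAR2-/- mice. The 4 hemoglobin genes of the blood list were at 0 in all mice.

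None of the 6 subunit genes passed the threshold between LPAR2-/- and WT mice (edgeR quasi-likelihood test, Benjamini-Hochberg adjusted p under 0.05 over all genes tested), while 6.77% of all genes tested did, 3.32% being higher and 3.46% lower in LPAR2-/- mice. The balance of these calls depended on scaling, with 494 higher and 515 lower with TMM but 616 higher and 377 lower with upper-quartile scaling. At an unadjusted p under 0.05 there was 1 of 6, Grin1, against 22.4% of all genes tested. DESeq2 and limma called 0 of 6 as well. No member had groups that did not overlap, as 1.77% of all genes had. Fitted values were above 0 for 4 members and below 0 for 2, with a median log2 fold change of 0.04, beside 0.003 over all genes tested. In bulk tissue, fewer cells of a type and less RNA per cell cannot be told apart. As each library came from 1 mouse, the p-values measure the spread between mice.

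**Figure D1:**
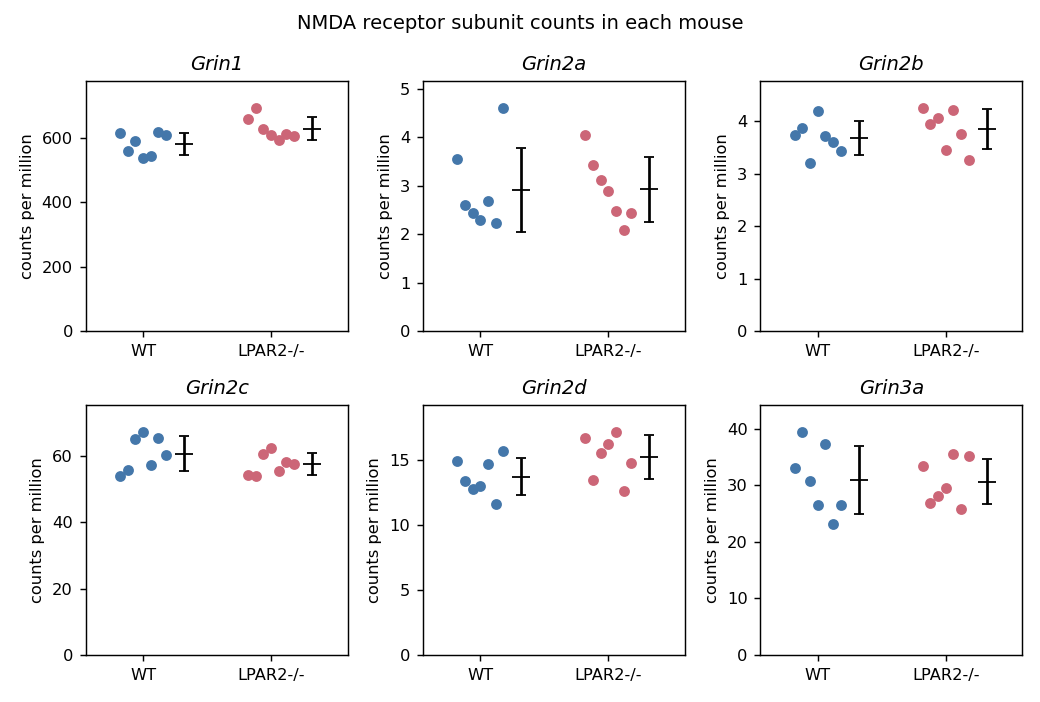
CPM of the 6 subunit genes in each of 7 WT mice (blue) and 7 LPAR2-/- mice (red), 1 point per mouse, with the mean and SD as black bars. The genotypes overlap for each gene; for Grin1, all 7 LPAR2-/- mice lie above the WT median of 589 CPM.

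Grin1, which encodes the obligatory subunit, spans chr2:25291177-25319187 on the minus strand with 21 counted exons. In WT mice, its lowest, median and highest levels were 538, 589 and 617 CPM. In LPAR2-/- mice they were 593, 610 and 693 CPM. All 7 LPAR2-/- mice were above the WT median, 3 of them above the highest WT mouse, and 4 lay within the WT range. The means were 581 ± 33.9 (SD, n = 7) CPM in WT and 627 ± 35.2 (SD, n = 7) CPM in LPAR2-/- mice, and the log2 fold change was 0.11 (standard error 0.0458, 95% interval 0.01 to 0.21) with an unadjusted p of 0.0264 and an adjusted p of 0.158 from edgeR. Over the 22 alternative settings, the adjusted p of Grin1 ranged from 0.103 to 0.284.

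Grin1 overlaps an antisense gene. Exons of Grin1os, annotated on the opposite strand, covered 1307 bases of the counted Grin1 exons, and 30.3% of the counted Grin1 length lay under an exon of an opposite-strand gene. Grin1os reached 267 ± 17.1 (SD, n = 7) CPM in WT and 284 ± 16.3 (SD, n = 7) CPM in LPAR2-/- mice. The ratio of Grin1os to Grin1 counts was 0.459 ± 0.0105 (SD, n = 7) in WT and 0.453 ± 0.0108 (SD, n = 7) in LPAR2-/- mice, so that it hardly varied between mice. Counting was set to the reverse strand, but the kit named in the labels is not stated to mark strand. Of 5 genes with at least 90% of their exons inside an expressed gene of the opposite strand, 4 had more counts per kilobase than that host (up to 2.70 times, median over all 5 1.19 times) and 1 had 0.0644 times. Where the exons of Grin1 and Grin1os overlap, it was therefore not settled which gene the reads came from.

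Grin2a encodes GluN2A and was counted over 12 exons on chr16:9577710-9992533, minus strand. It had few reads, 36 to 79 in WT and 35 to 79 in LPAR2-/- mice. The lowest, median and highest WT mice had 2.23, 2.59 and 4.61 CPM. Those of LPAR2-/- mice had 2.09, 2.89 and 4.05 CPM. The ranges overlapped almost completely, with 6 of 7 LPAR2-/- mice inside the WT range, and the log2 fold change was 0.01 (standard error 0.181, 95% interval −0.37 to 0.40, adjusted p = 0.98 from edgeR). The sign of this value changed with single mice, as it was −0.08 without LPAR2-/- mouse 1 and 0.15 without WT mouse 7.

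Grin2b, the gene of GluN2B, was counted over 15 exons on chr6:135729805-136173511, minus strand, with 58 to 85 reads in WT and 51 to 94 reads in LPAR2-/- mice. WT mice had a lowest level of 3.20, a median of 3.71 and a highest level of 4.20 CPM. In LPAR2-/- mice these were 3.26, 3.94 and 4.26 CPM. The groups overlapped, with 5 of 7 LPAR2-/- mice within the WT range, and the log2 fold change was 0.07 (standard error 0.0923, 95% interval −0.13 to 0.26, adjusted p = 0.724 from edgeR). Counting alone gives Grin2b a coefficient of variation of 11.9% in WT mice, more than the 8.63% observed, whereas Grin2a varied by 29.7% with 13.6% from counting.

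Grin2c encodes GluN2C and was counted over 15 exons on chr11:115249169-115267243, minus strand. Its lowest, median and highest levels were 53.9, 60.4 and 67.5 CPM in WT mice. LPAR2-/- mice had 54.0, 57.7 and 62.5 CPM. All 7 LPAR2-/- mice lay within the WT range, and the log2 fold change was −0.08 (standard error 0.0548, 95% interval −0.19 to 0.04, adjusted p = 0.436 from edgeR). Of the cell types known for Grin2c, markers of cerebellar granule cells summed to 0.455 to 1.17 CPM in WT and 0.564 to 1.54 CPM in LPAR2-/- mice, whereas 7 astrocyte markers summed to between 4236 and 4988 CPM in WT and between 4176 and 4879 CPM in LPAR2-/- mice, with 0 of 7 called by edgeR, DESeq2 or limma and 0 at an unadjusted p under 0.05.

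Grin2d, which encodes GluN2D, was counted over 12 exons on chr7:45832483-45866681, minus strand. WT mice had 11.7, 13.4 and 15.7 CPM as lowest, median and highest levels. LPAR2-/- mice had 12.7, 15.5 and 17.2 CPM. The LPAR2-/- mice tended towards the upper part of the WT range, 6 of 7 being above the WT median and 3 above the highest WT mouse, but the groups overlapped. The log2 fold change was 0.15 (standard error 0.0806, 95% interval −0.02 to 0.32), the largest fitted value among the 6 genes, with an adjusted p of 0.286 from edgeR. The 8 markers of GABAergic interneurons, in which Grin2d is known to be expressed, summed to 639 to 734 CPM in WT and 528 to 759 CPM in LPAR2-/- mice, with 0 of 8 called by edgeR, DESeq2 or limma and 0 at an unadjusted p under 0.05. For the diencephalon, 4 thalamus markers summed to 31.2 to 66.0 CPM in WT and 36.9 to 80.9 CPM in LPAR2-/- mice, with 0 of 4 called by edgeR and limma. Among them Zic1 had 8.04 ± 2.88 (SD, n = 7) CPM in WT and 14.8 ± 6.55 (SD, n = 7) CPM in LPAR2-/- mice (log2 fold change 0.90, unadjusted p = 0.00662, adjusted p = 0.0744 from edgeR) and was called by DESeq2, beside 9.73% of all genes. The other thalamus markers had −0.22 (Lef1), −0.08 (Tcf7l2) and 0.05 (Prkcd), and the median of the list was −0.02. The part of either list in the level of Grin2d was not tested.

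Grin3a, the gene of GluN3A, was counted over 9 exons on chr4:49661611-49845769, minus strand. Its lowest, median and highest levels were 23.3, 30.9 and 39.6 CPM in WT and 25.9, 29.5 and 35.6 CPM in LPAR2-/- mice. All LPAR2-/- mice were inside the WT range. The log2 fold change was −0.02 (standard error 0.115, 95% interval −0.27 to 0.22, adjusted p = 0.941 from edgeR). WT mouse 2, the library with the most Fibcd1, had the highest Grin3a level, and without it the log2 fold change was 0.05. With a coefficient of variation of 19.4% in WT mice against 4.15% from counting, Grin3a differed more between mice than its depth gives, and more than the median of all genes tested, which was 8.74%.

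Further genes named for the receptor were Grin3b and Grina. Grin3b encodes a second glycine-binding subunit, known mainly from motor neurons, and reached 1.57 ± 0.416 (SD, n = 7) CPM in WT and 1.20 ± 0.386 (SD, n = 7) CPM in LPAR2-/- mice (log2 fold change −0.37, adjusted p = 0.334 from edgeR). Grina, a glutamate receptor-associated membrane protein that forms no part of the channel, had 556 ± 26.8 (SD, n = 7) CPM in WT and 616 ± 56.4 (SD, n = 7) CPM in LPAR2-/- mice. Its log2 fold change of 0.15 did not pass the threshold (adjusted p = 0.12 from edgeR). Neither were any of 4 AMPA or 5 kainate receptor subunit genes called, beside 6.77% of all genes tested. The medians of their log2 fold changes were −0.02 and −0.04. At an unadjusted p under 0.05 there were 0 of 4 and 1 of 5, and DESeq2 and limma called none of either family. Among them the largest absolute log2 fold changes were those of Gria4, −0.08 (adjusted p = 0.707), and Grik3, −0.17 (adjusted p = 0.35, both from edgeR). With each mouse left out in turn, these ranged from −0.13 (without WT mouse 6) to −0.03 (without LPAR2-/- mouse 6) for Gria4 and from −0.24 (without WT mouse 1) to −0.10 (without WT mouse 2) for Grik3.

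**Figure D2:**
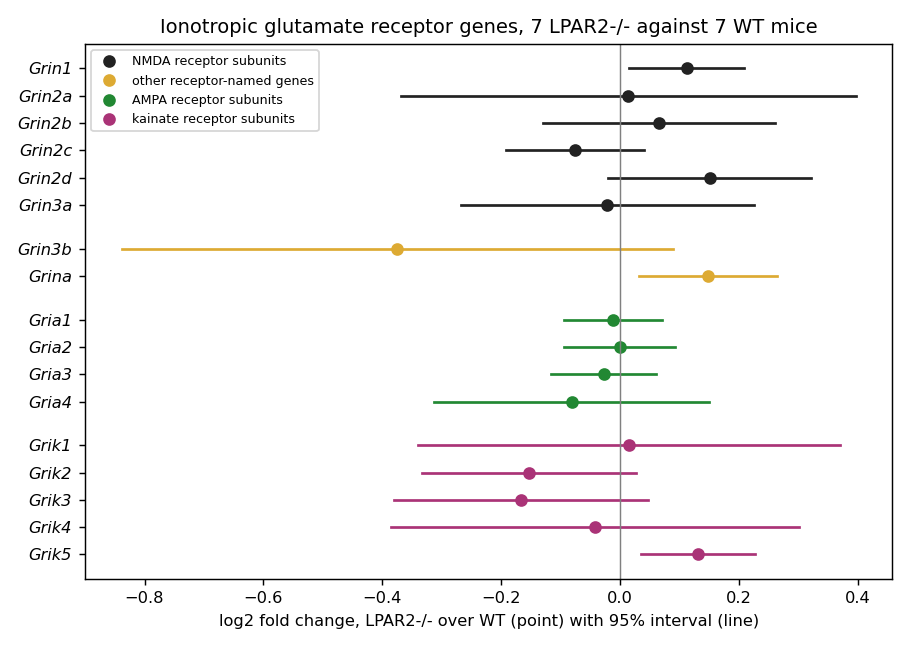
Log2 fold change of LPAR2-/- over WT (points) with 95% intervals (lines) from edgeR, 7 mice per genotype, for NMDA receptor subunits, genes named for the receptor, AMPA and kainate receptor subunits. The narrowest interval of the NMDA receptor subunits is that of Grin1 (0.01 to 0.21) and the widest that of Grin2a (−0.37 to 0.40); no gene shown passed the adjusted threshold.

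On the RPKM scale, levels in WT mice followed the order Grin1 (133 ± 7.75), Grin2c (12.4 ± 1.09), Grin3a (4.03 ± 0.78), Grin2d (3.13 ± 0.323), Grin2a (0.646 ± 0.192) and Grin2b (0.490 ± 0.0423; all SD, n = 7). LPAR2-/- mice had the same order, with 144 ± 8.06 RPKM for Grin1, 11.8 ± 0.661 for Grin2c, 3.98 ± 0.523 for Grin3a, 3.48 ± 0.387 for Grin2d, 0.649 ± 0.149 for Grin2a and 0.513 ± 0.0507 for Grin2b (SD, n = 7). Grin1 lay above Grin2c, Grin2c above Grin3a and Grin2d above Grin2a in all 14 mice without overlap of the ranges. Grin3a and Grin2d had overlapping ranges, with Grin3a higher in 13 of 14 mice, and so had Grin2a and Grin2b, with Grin2a higher in 11 of 14 mice. Of 13619 protein-coding genes tested, 97.7% had a lower WT median RPKM than Grin1, but only 7.81% a lower one than Grin2a and 6.7% a lower one than Grin2b.

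The low position of Grin2a and Grin2b went along with incomplete gene models. The counted exons covered all or nearly all coding bases of the 6 genes, but those of Grin2a ended 9812 bases and those of Grin2b 16572 bases short of the 3′ end of the gene in GENCODE M21. For Grin2d, 600 bases at the 3′ end were not counted, whereas Grin1, Grin2c and Grin3a reached the annotated end within 4 bases. Among all protein-coding genes tested, the median WT level was 9.46 RPKM where at most 50 bases at the 3′ end were left out (10059 genes), 5.01 RPKM where more than 5000 and up to 10000 bases were left out (254 genes) and 6.39 RPKM above that (334 genes). The part of the uncounted 3′ ends in the level of Grin2a and Grin2b, which lay below both of these medians, was not tested.

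**Figure D3:**
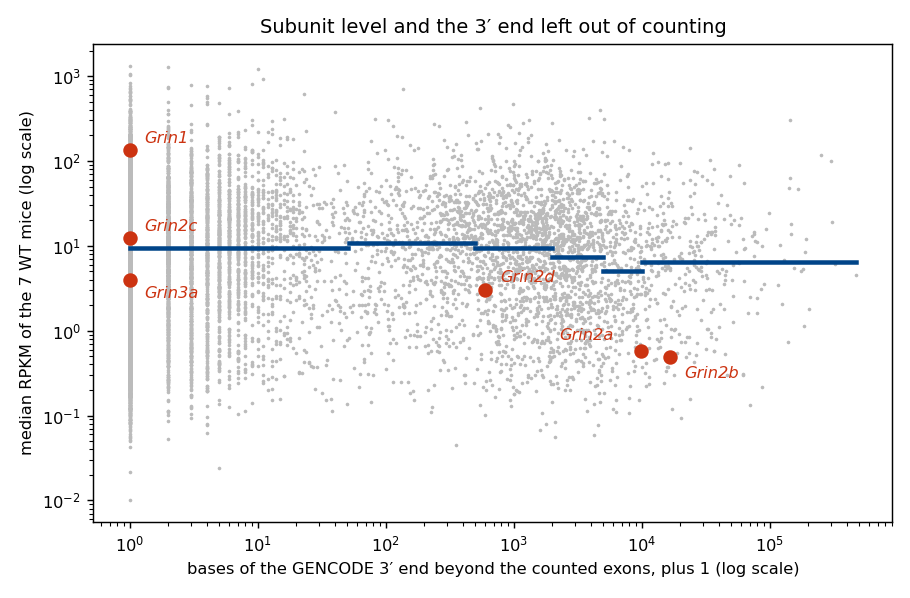
Median RPKM of the 7 WT mice (log scale) against the number of bases by which the counted exons end before the GENCODE M21 3′ end (plus 1, log scale; negative values drawn as 0), for 13619 protein-coding genes tested (grey) and the 6 subunit genes (red); blue lines are medians within 6 ranges of missing bases. Grin2a and Grin2b lie at 9812 and 16572 missing bases with 0.575 and 0.495 RPKM, below the medians of 5.01 and 6.39 RPKM of their ranges.

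The composition of the receptor transcripts was compared within each library, which does not depend on the scaling of libraries. The ratio of Grin2a to Grin2b RPKM had a lowest, median and highest value of 0.911, 1.20 and 2.23 in WT and 0.924, 1.27 and 1.58 in LPAR2-/- mice. Its means were 1.33 ± 0.447 (SD, n = 7) and 1.26 ± 0.242 (SD, n = 7), a difference well within the spread between mice. The ratio of Grin1 to the sum of the Grin2 genes was 6.91, 7.98 and 8.94 in WT and 7.90, 8.60 and 10.3 in LPAR2-/- mice, in the same order of lowest, median and highest. Here the means were 7.98 ± 0.621 (SD, n = 7) and 8.77 ± 0.785 (SD, n = 7), and the groups overlapped. The difference of the mean log2 ratios was 0.14, and it ranged from 0.10, without LPAR2-/- mouse 2 or without WT mouse 4, to 0.16 when each mouse was left out in turn. Of the summed Grin2 RPKM, Grin2c took 74.3 ± 3.45% (SD, n = 7) in WT and 71.7 ± 2.56% (SD, n = 7) in LPAR2-/- mice. Grin2d took 18.9 ± 2.39% (SD, n = 7) and 21.2 ± 1.93% (SD, n = 7), and Grin2a and Grin2b the rest. These are shares of transcript counts per counted exon length, and the part of the gene models in them was not tested.

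**Figure D4:**
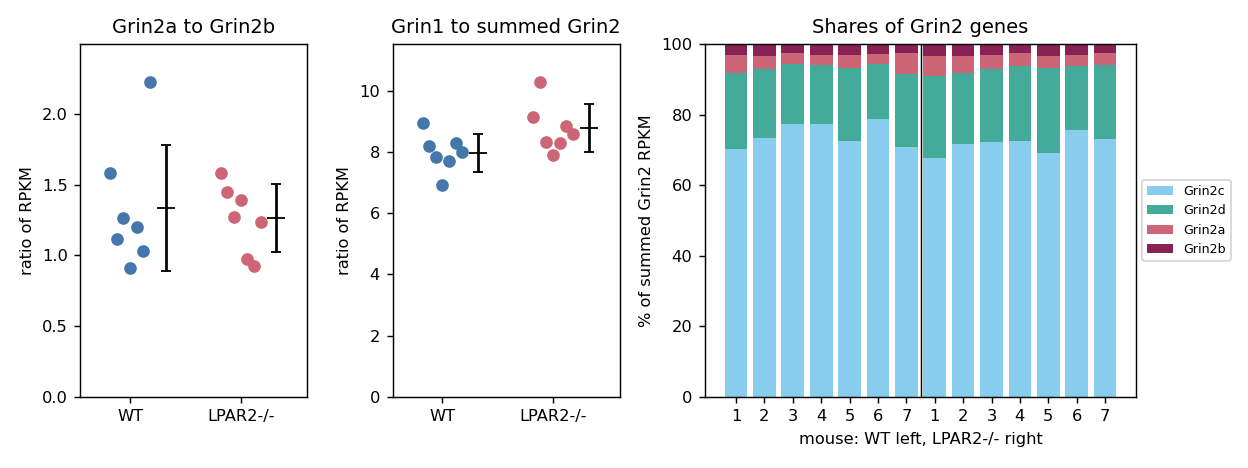
Ratio of Grin2a to Grin2b (left), ratio of Grin1 to the summed Grin2 genes (middle), both from RPKM with 1 point per mouse and mean and SD as black bars, and shares of the Grin2 genes in their summed RPKM in each mouse (right). The Grin2a to Grin2b ratio reaches 2.23 in WT mouse 7 and otherwise stays at or below 1.58; Grin2c takes between 67.8% and 78.7% in every mouse.

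After removal of the genotype means, the subunits were correlated with each other in both directions. Over the 14 mice, Pearson correlations of log2 CPM between pairs of members ranged from −0.61 for Grin2c and Grin3a to 0.62 for Grin2a and Grin2d. These are descriptions, as the values share library and depth, and for Grin2a and Grin2b rest on at most 79 and 94 reads per mouse. Genes with the pattern most like each member were taken from all 14897 tested genes, so that high values are found for any gene. For Grin1 they were Nat8l, which makes N-acetylaspartate (r = 0.947), Calm3, one of the calmodulin genes (r = 0.943), and Grin1os (r = 0.923). Exons of Grin1os overlap those of Grin1, and it was not settled which gene the reads there came from. Grin2a was most like Vstm5 (r = 0.91), Myh10, a nonmuscle myosin heavy chain (r = 0.905), and Habp4 (r = 0.893). Grin2b had lower values, with Tmem55a (r = 0.817), 9030025P20Rik (r = 0.815) and Epha1 (r = 0.796). Mean levels of 9030025P20Rik were low, 0.901 CPM in WT and 1.99 CPM in LPAR2-/- mice, as were those of Epha1, 0.957 and 0.889 CPM. Those of Grin2c were 3110062M04Rik (r = 0.911), Mir6236 (r = 0.863) and Eps8l2 (r = 0.857), those of Grin2d Hnmt, which inactivates histamine (r = 0.925), Sh3bgrl (r = 0.913) and Lgr5 (r = 0.904), and those of Grin3a Polr2m (r = 0.898), Grp, a neuropeptide (r = 0.867), and Klhl13 (r = 0.822). Some values differed between the genotypes, with r = 0.572 within WT and 0.966 within LPAR2-/- mice for 9030025P20Rik, and 0.966 and 0.600 for Grp. No gene was among the 3 most alike of more than 1 member.

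Of the genes that act on, hold or follow the receptor, 69 were tested in 5 lists, of which 2 were higher and 1 was lower in LPAR2-/- mice, or 4.35%, beside 6.77% of all genes tested. DESeq2 called 8 of the 69, beside 9.73% of the 14319 genes to which it gave an adjusted p. Of 9 genes of coagonist supply and clearance, 0 were called, with a median log2 fold change of 0.04; the largest value was that of Shmt1, which interconverts serine and glycine (0.28, adjusted p = 0.0604 from edgeR). At an unadjusted p under 0.05 there were 2 of 9, and DESeq2 called 1, Shmt1 (adjusted p = 0.0392), and limma 0. Among 17 kinases and phosphatases the median was −0.01, and edgeR, DESeq2 and limma each called 1. Prkaca, the catalytic alpha subunit of protein kinase A, rose from 209 ± 14.8 (SD, n = 7) CPM in WT to 239 ± 12.9 (SD, n = 7) CPM in LPAR2-/- mice (log2 fold change 0.19, standard error 0.0482, adjusted p = 0.0257 from edgeR). Prkca, protein kinase C alpha, had the largest absolute value of that list, −0.25 (adjusted p = 0.29 from edgeR).

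Of 19 scaffold, trafficking and surface genes, 1 was called, and the median was −0.03. At an unadjusted p under 0.05 there were 8 of 19, beside 22.4% of all genes tested. DESeq2 called 3 (Shank1, Shank2 and Snx27), beside 9.73% of all genes, and limma called 0, beside 6.65%. Shank1, a postsynaptic scaffold, fell from 444 ± 22.9 (SD, n = 7) CPM to 407 ± 9.08 (SD, n = 7) CPM (log2 fold change −0.13, standard error 0.0368, adjusted p = 0.0495 from edgeR). Kif17, the kinesin that carries GluN2B-containing vesicles, had the largest absolute value (−0.24, adjusted p = 0.0834 from edgeR). Of 17 genes of calcium signalling behind the receptor, Rasgrf2, a calcium-dependent Ras activator, rose from 173 ± 8.41 (SD, n = 7) CPM to 205 ± 26.5 (SD, n = 7) CPM (log2 fold change 0.24, standard error 0.0688, adjusted p = 0.0435 from edgeR), and the median was −0.02. DESeq2 and limma called Rasgrf2 as well. Of 7 transcription factors linked to subunit genes, 0 were called, with a median of 0.02, while 2 had an unadjusted p under 0.05, DESeq2 called 1 (Mef2c) and limma 0. The largest value was that of Rest, a repressor of neuronal genes, with 0.35 (adjusted p = 0.482 from edgeR) at 10 to 52 counts, which became 0.17 without LPAR2-/- mouse 3.

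The 3 calls were near the threshold, and leaving out single mice ended them while the fitted values stayed similar. Over all settings, the log2 fold change was 0.16 to 0.22 for Prkaca, 0.20 to 0.29 for Rasgrf2 and −0.15 to −0.11 for Shank1. The call of Prkaca was lost without LPAR2-/- mouse 1 or 2 or WT mouse 2, 4, 5 or 6 (adjusted p from 0.00422 to 0.0612 over all settings). The call of Rasgrf2 was lost without LPAR2-/- mouse 1, 2, 6 or 7 or WT mouse 1, 2, 3, 4, 5 or 7 (0.011 to 0.0863), and that of Shank1 held in 3 of 22 settings, which were DESeq2, the DESeq2 size factors and leaving out WT mouse 5 (0.00582 to 0.111).

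**Figure D5:**
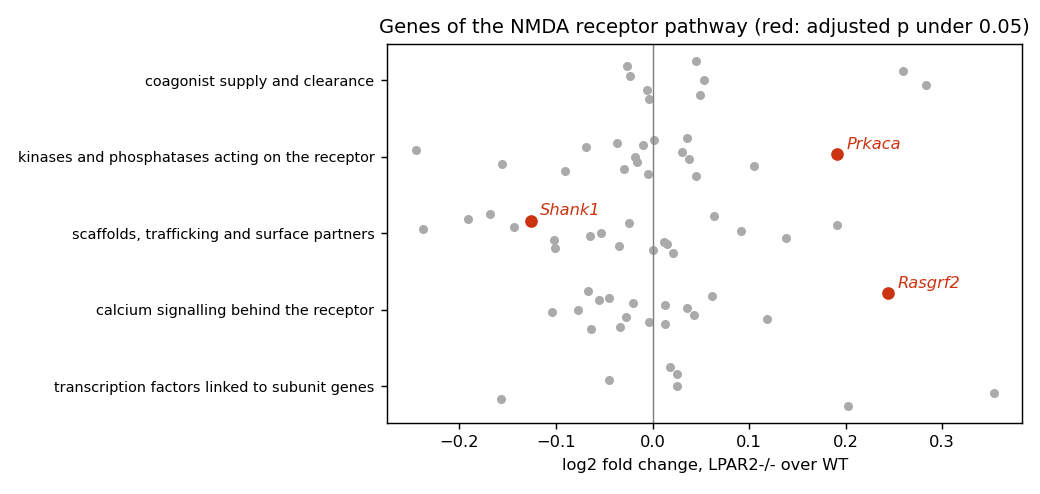
Log2 fold change of LPAR2-/- over WT for the 69 tested genes of 5 lists of the receptor's pathway, 1 point per gene, spread vertically by gene name. Red points passed the adjusted threshold: Prkaca (0.19), Rasgrf2 (0.24) and Shank1 (−0.13).

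Among the markers of cell types, 1 of 6 dentate granule cell genes was called, beside 6.77% of all genes tested. This was Tdo2, with 24.5 ± 2.74 (SD, n = 7) CPM in WT and 33.4 ± 6.36 (SD, n = 7) CPM in LPAR2-/- mice (log2 fold change 0.45, adjusted p = 0.0244 from edgeR). Of the other genes of this list, Prox1, C1ql2 and Dsp had fitted values above 0, and Trpc6 had −0.42 (unadjusted p = 0.0445, adjusted p = 0.21 from edgeR) and Glis3 −0.03. The sum of the dentate list ranged from 455 to 674 CPM in WT and from 489 to 723 CPM in LPAR2-/- mice. Of 5 meningeal fibroblast genes, Lum was called, with 7.50 ± 1.25 (SD, n = 7) CPM and 10.9 ± 1.75 (SD, n = 7) CPM (log2 fold change 0.54, adjusted p = 0.0132 from edgeR). At an unadjusted p under 0.05 there were 3 of 5, as the collagen genes Col1a1 (log2 fold change 1.09, adjusted p = 0.112) and Col1a2 (log2 fold change 1.23, adjusted p = 0.111, both from edgeR) had larger fitted values than Lum but a wider spread. That list summed to 31.9 to 122 CPM (median 51.2 CPM) in WT and 37.7 to 172 CPM (median 105 CPM) in LPAR2-/- mice. Their part in the values of the subunits was not tested. Tdo2 was not called without WT mouse 4 (adjusted p = 0.0526) or 5 (adjusted p = 0.0535), whereas Lum was called when any 1 mouse was left out but not with a replicate block for the mouse number (adjusted p = 0.0534 from edgeR). Without WT mouse 2, LPAR2-/- mouse 2 or LPAR2-/- mouse 3, the libraries that stood apart in marker genes, the log2 fold change of Grin1 was 0.10, 0.09 and 0.11 and that of Grin2d 0.14, 0.18 and 0.15, and 0 of 6 subunit genes were called in each case.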

How the data were processed

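RNA of 14 hippocampi, 7 per genotype, was measured by RNA sequencing. According to the labels and methods of the study, the authors used cutadapt 1.18 for trimming, STAR for alignment to mm10 and featureCounts 1.6.3, set to the reverse strand, for counts per gene over exons. The deposited counts are not normalized. The labels name a TruSeq RNA kit and the methods add depletion of ribosomal RNA. A second deposited table, of normalized values, was not used here.

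Computed here with R 4.3.3: edgeR 4.0.16 (filterByExpr, TMM, robust quasi-likelihood F test, genotype only, Benjamini-Hochberg over 14897 genes, threshold 0.05), with DESeq2 1.42.0 and limma 3.58.1 as alternatives. Scripts were tested on simulated data. Standard errors and 95% intervals came from the edgeR fit. The subunit genes were picked by name, and they, the lists and the markers were chosen with earlier results of these data known. Named were the members, Grin3b, Grina, Lpar2, called list and marker genes, the largest change per pathway list and the 3 nearest genes per member. Shank2, Snx27, Mef2c, Zic1, Trpc6, Glis3, Col1a1, Col1a2, Slc6a13 and Dcn were named after their values were seen. Alternatives were other normalizations, filters, pseudocounts (1 and 0.5), a replicate block and each mouse left out. GENCODE M21 (mm10) gave 3′ ends and sequences. Depth was 15434620 to 23258949 reads per mouse, and the counting error of a gene is given beside its spread between mice.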

Additional observations from a re-analysis of the deposited data

Results flagged for a closer look

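A gap test for single outlying mice (Dixon, critical value 0.568 for 7 mice) was applied to 52 combinations of a quantity and a genotype, covering the subunit genes, their ratios and the sums of cell type markers. It singled out 4, of which none was a subunit gene or ratio. Chance singles out about 1 in 20 such groups. The CA1 pyramidal cell markers summed to 343 CPM in WT mouse 2, against 109 to 145 CPM in the other WT mice. In LPAR2-/- mouse 2, the choroid plexus markers summed to 286 CPM, against 24.8 to 49.6 CPM in the other LPAR2-/- mice, and the markers of glutamatergic neurons to 3068 CPM, against 2477 to 2724 CPM. The same mouse had the highest Grin1 and Grina levels. Oligodendrocyte markers summed to 3878 CPM in LPAR2-/- mouse 3, against 969 to 1944 CPM in the others of its genotype. The part of these differences in the values of the subunits was not tested.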

How the results depend on the processing

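The number of subunit genes called was 0 in all 22 alternatives. Fitted values of Grin1, Grin2b and Grin2d were above 0 and those of Grin2c below 0 in each of them, whereas those of Grin2a (−0.08 to 0.15) and Grin3a (−0.08 to 0.05) changed sign without being called. The count over the pathway lists, 3, became 8 with DESeq2, which called 1393 of all genes, and was 0 to 6 when each mouse was left out in turn. For all genes, 1009 calls became 567 to 1385 with a mouse left out, the lowest without WT mouse 2; the causes were not tested. A replicate block for the mouse number left 586 calls. Of the 21 genes refitted under it, Shank1 (adjusted p = 0.102) and Lum (adjusted p = 0.0534) lost their calls under it, and none of the others changed its call. Mice of the same number did not deviate together, as their correlations ranged from −0.33 to 0.31 and 3 of 7 pairs exceeded 0.1, and pairing by number is not supported by them. The subunit ratios moved by less than 1 SD with counts not divided by length or with a mouse left out, and RPKM levels did so with plain library sizes. With 35 to 94 reads per mouse, Grin2a and Grin2b were the members most limited by depth.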
